A study of Rattus norvegicus with 9 samples.

Results

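Pld1 and Napepld encode the phospholipase D type enzymes that could be identified on this rat lung array, each through 1 Agilent catalogue probe spotted 10 times per array. They are 2 of the 30 genes whose probes could be named, on an array of 38804 probes other than controls. The Pld1 probe (A_44_P338970) carries the transcript accession NM_030992 and the Napepld probe (A_44_P451930) carries NM_199381, and both accessions matched 1 gene in the RefSeq gene table, on rat chromosomes 2 and 4. The probes were chosen by gene name, with earlier results of these data known. All of their spots on all arrays were read, and flagged spots were left out of the averages.

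Whole-lung RNA of 9 male Wistar rats, given as 6 to 8 weeks old, was hybridised with 1 array per rat. In the first group 3 rats were exposed to cigarette smoke (CS) for 90 days, and in the second 3 rats were exposed to fine particulate matter (PM2.5) for 90 days, each meant as a COPD model (chronic obstructive pulmonary disease). The 3 control rats inhaled NS for 90 days, an abbreviation left unexplained in the labels. The labels pair replicates 1, 2 and 3 of both exposed groups with archiving after 90, 91 and 92 days and all control rats with 90 days, and nothing else in the files bears on these times. Whole lung mixes many cell types, so fewer cells of a type and less RNA per cell cannot be told apart.

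Phospholipase D1, the product of Pld1, cleaves phosphatidylcholine into choline and phosphatidic acid, a lipid messenger in vesicle traffic, secretion and receptor signalling, and protein kinase C is among its activators. NAPE-PLD, the product of Napepld, carries a similar name but belongs to the metallo-beta-lactamase fold and not to the phospholipase D family. It cleaves N-acyl-phosphatidylethanolamines into phosphatidic acid and N-acylethanolamines, which include the endocannabinoid anandamide and the anti-inflammatory lipid palmitoylethanolamide. The RNA of either gene says nothing by itself about lipid levels, which were not measured here.

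The RefSeq gene table lists 4 transcripts of Pld1 and 6 of Napepld, and other starts were not examined. The sequences around 1 annotated transcription start of each gene are shown, and they differ in composition. They are taken from RefSeq on the GRCr8 build, where both genes lie on the plus strand, and run from 250 bases before to 50 bases after the annotated start. The Pld1 window is chr2:112821926-112822225 and the Napepld window is chr4:14253010-14253309. Capitals mark letters of any of 4 motifs searched on both strands, the xenobiotic response element core GCGTG, the antioxidant response element core TGACNNNGC, the GC box GGGCGG and the TATA box core TATAAA.
Pld1: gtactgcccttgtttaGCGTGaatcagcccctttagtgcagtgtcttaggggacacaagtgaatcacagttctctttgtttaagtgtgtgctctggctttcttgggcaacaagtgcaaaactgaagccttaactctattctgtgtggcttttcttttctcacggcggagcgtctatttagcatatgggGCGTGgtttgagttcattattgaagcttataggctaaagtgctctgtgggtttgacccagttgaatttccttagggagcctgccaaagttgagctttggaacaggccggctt
Napepld: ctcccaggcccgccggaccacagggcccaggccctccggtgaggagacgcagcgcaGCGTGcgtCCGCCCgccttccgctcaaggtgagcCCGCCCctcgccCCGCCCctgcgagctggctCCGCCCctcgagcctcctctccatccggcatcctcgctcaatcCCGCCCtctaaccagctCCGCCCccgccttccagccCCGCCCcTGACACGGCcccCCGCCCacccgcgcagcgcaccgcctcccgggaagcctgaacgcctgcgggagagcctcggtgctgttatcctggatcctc

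The Napepld window had a GC content of 74.7% and 32 CG dinucleotides, and the Pld1 window had 46.3% and 6, against a median of 51.7% and 7 over the 33469 windows of the same length in the table. The GC box had 8 matches in the Napepld window and 0 in the Pld1 window, and 33.1% of all windows held it. The xenobiotic core had 2 matches near Pld1 and 1 near Napepld (29.7% of all windows held it), and the antioxidant core had 1 match near Napepld and 0 near Pld1 (12.1% of all windows). The TATA core was in neither window, and 14.2% of all windows held it. The GC box and the antioxidant core had no bases in common in the Napepld window. These matches describe letters only. The array measured RNA and no binding, and no genome position of the probes is given because the array header names the older rn4 build.

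The arrays differed in brightness along the lines of the groups, which bears on both genes. The 75th percentile of the processed signal, the background-subtracted spot brightness on a linear scale, was 201 ± 12.9 on CS arrays, 196 ± 53.3 on PM2.5 arrays and 332 ± 6.32 on control arrays (SD, n = 3 each). Slides were inferred here from shared scan times, and no slide barcode was read. By this rule the exposed arrays occupied 3 slides, and all control arrays a slide of their own that was scanned on another day. A slide or scan effect and the exposures therefore cannot be told apart. None of the 30 cell type markers on the list used, lung markers included, had a named probe, so the labelled tissue could not be checked. With the signal scaled to each array's 75th percentile, 37643 probes were tested, and their median log2 change was 0.44 for CS and 0.50 for PM2.5 against control. After quantile scaling these medians were 0.06 and 0.07, so the sign and size of a change in a single gene can depend on the scaling, and each value below is read beside that shift.

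Pld1 gave less signal in both exposed groups. The processed signal, averaged on the log scale over the spots of an array, was 299, 268 and 269 on the CS arrays, 332, 183 and 410 on the PM2.5 arrays, and 804, 769 and 707 on the control arrays. All 6 exposed arrays were dimmer than every control array before any scaling, and the CS arrays lay close together while the PM2.5 arrays spread widely. The 75th percentiles of the arrays separated in the same way, at 158.6 to 257.2 on exposed and 325.2 to 337.5 on control arrays. No share over all probes was computed for unscaled signal. All 90 Pld1 spots were well above background, with a median spot signal 15.6 to 60.9 times the local background, so dimness did not limit the probe.

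Scaling to the 75th percentile narrowed the gap and kept its order. On this log2 scale, where 0 is the array's 75th percentile, the Pld1 level was 0.51, 0.38 and 0.54 on CS arrays, against 1.27, 1.19 and 1.12 on control arrays. The means were 0.47 ± 0.09 in CS lungs and 1.19 ± 0.07 in control lungs (SD, n = 3 each), and the groups did not overlap. Pld1 fell in CS lungs by 0.72 log2 units (SE 0.22, adjusted p = 0.0263, limma over 37643 probes with Benjamini-Hochberg adjustment), to 0.608 times the control level (95% confidence interval 0.434 to 0.854). In that comparison 47.5% of all probes passed an adjusted p below 0.05 and 8.48% passed as lower, and on 13.0% of probes all CS arrays lay below all control arrays. The direction of the Pld1 difference was opposite to the median of all probes, which was 0.44 higher in CS in this scaling. After quantile scaling that median was 0.06, while Pld1 stayed at −0.72. Pld1 lies above the 75th percentile and most probes below it, and whether the median shift applies at its brightness was not tested.

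In PM2.5 lungs the Pld1 level was 1.07, 0.08 and 0.67, against 1.27, 1.19 and 1.12 in control lungs. All PM2.5 arrays again lay below all control arrays, but PM2.5 1 was only just below control 3. The mean was 0.61 ± 0.50 in PM2.5 lungs and 1.19 ± 0.07 in control lungs (SD, n = 3 each), a spread among PM2.5 rats several times that of either other group. Pld1 fell in PM2.5 lungs by 0.59 log2 units (SE 0.22, adjusted p = 0.0439 in the same limma fit), to 0.666 times the control level (95% confidence interval 0.475 to 0.935). Here 56.9% of all probes passed and 9.84% passed as lower, and 13.1% had all PM2.5 arrays below all control arrays. PM2.5 2 gave the lowest of the 9 levels, and without it the difference was −0.32 (adjusted p = 0.104). Without PM2.5 1 it was −0.82 (adjusted p = 0.0106).

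The exposed groups did not separate for Pld1. The level was 0.47 ± 0.09 in CS lungs and 0.61 ± 0.50 in PM2.5 lungs (SD, n = 3 each), with all CS values inside the PM2.5 range. The log2 difference was −0.13 (SE 0.22, 95% confidence interval −0.62 to 0.36, adjusted p = 0.882 in limma), where 5.91% of all probes passed (3.18% higher and 2.74% lower in CS), so a CS level 0.651 to 1.28 times that in PM2.5 lungs lies within the interval. From low to high, the order of the group means was CS, PM2.5 and control. The CS and PM2.5 means did not differ beyond their spread, and each lay below control in the tests above. A moderated F test over the 3 groups gave an adjusted p of 0.0391 for Pld1, and 55.6% of all probes passed it.

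The call for Pld1 rests on few arrays, on which arrays share the estimate of spread and on how the control slide is counted. Leaving out any CS array or any control array moved the adjusted p for CS against control to between 0.0509 (without CS 2) and 0.0838 (without control 1), while the difference stayed between −0.67 and −0.75. Leaving out any of the 3 PM2.5 arrays kept that call. The fit of 9 arrays shares 1 estimate of spread over the groups, the wider PM2.5 spread included. In a limma fit of only CS and control arrays the SE was 0.098 and the adjusted p 0.00237, where 59.8% of all probes passed. A fit of only PM2.5 and control arrays gave an adjusted p of 0.0707, where 58.7% passed. For PM2.5 against control the call held only when PM2.5 1 was left out, among the 9 arrays tried. Taking slide as a random block gave −0.70 for CS (adjusted p = 0.209) and −0.57 for PM2.5 (adjusted p = 0.220), and treating the 3 control arrays as a single sample gave adjusted p of 0.249 and 0.261. An exact two-sided permutation test of 3 arrays against 3 gave p = 0.1 for both exposures, the smallest it allows.

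The sign of the Pld1 difference was the same under each scaling tried. Quantile scaling gave −0.72 for CS (adjusted p = 0.0303) and −0.58 for PM2.5 (adjusted p = 0.0588), where 24.6% of all probes passed for CS (11.8% higher and 12.8% lower) and 29.7% for PM2.5 (14.5% higher and 15.2% lower). The authors' deposited log2 values gave −0.69 (adjusted p = 0.0343) and −0.56 (adjusted p = 0.0671), where 24.8% and 29.8% of all probes passed. Their Pld1 levels were close to the quantile ones, so these 2 are not separate readings. Centring on the median gave −1.10 and −1.03, and both passed. In these fits 24.2% of all probes passed for CS (2879 higher, 6215 lower) and 33.3% for PM2.5 (4770 higher, 7754 lower). The CS fall therefore passed under these 4 scalings, and the PM2.5 fall under 2 of them, the 75th percentile and the median. After normexp background correction neither passed, at −0.60 (adjusted p = 0.112) and −0.50 (adjusted p = 0.184), where 6.34% and 8.06% of all probes passed.

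**Figure D1:**
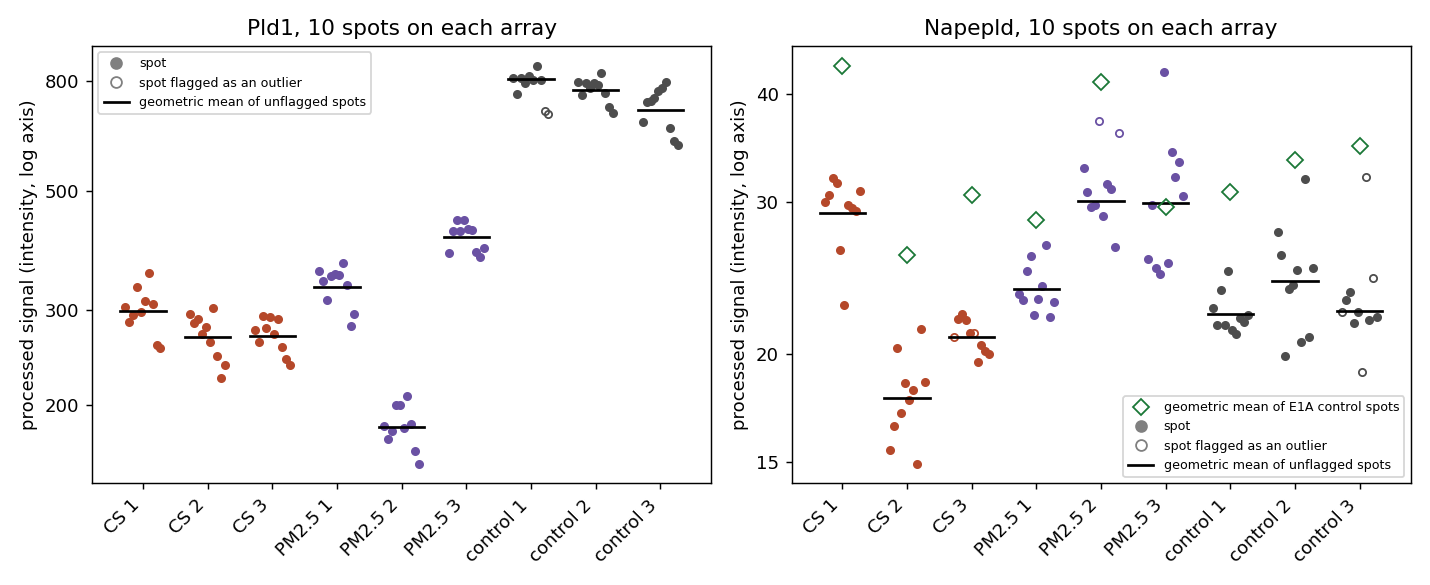
Processed signal of each of the 10 spots of the Pld1 probe (left) and the Napepld probe (right) on the 9 arrays, before scaling between arrays, on log axes. Filled circles are spots used, open circles are spots flagged as outliers, bars are geometric means of unflagged spots, and green diamonds in the right panel are the geometric mean signal of the E1A control spots of that array. Pld1 spots on CS and PM2.5 arrays lie below those on control arrays, while Napepld array means of 17.8 to 30.1 overlap between the groups and lie below the E1A mean of the same array on 8 of 9 arrays, all but PM2.5 3.

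The 10 Pld1 spots show how the reading varied within an array. The SD over spots was 0.05 to 0.14 log2 units, with a median of 0.13. The SE of an array's mean over its spots was 0.017 to 0.045, below the SD of the level between CS rats (0.09), PM2.5 rats (0.50) and control rats (0.07). The spots had a place effect that repeated on every array. The spots in array rows 446 and 451 lay below their array's mean on each of the 8 arrays where they were not flagged, by 0.18 log2 units on average, and the spot in row 332 lay above it on all 9 arrays, by 0.14. Since each array holds the same layout, this effect is shared by the groups wherever the same spots are kept. On control 1 the low spots in rows 446 and 451 were flagged and dropped. With flagged spots kept, the Pld1 difference was −0.69 in CS and −0.57 in PM2.5. At each of the 8 spot positions left unflagged on all CS and control arrays, every CS spot was dimmer than every control spot, and this held at 6 of 8 positions for PM2.5 after scaling. Spots of an array share its RNA and are not replicates.

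Napepld was read close to the lower end of the array. Its processed signal was 29.2, 17.8 and 20.9 on CS arrays, 23.8, 30.1 and 29.9 on PM2.5 arrays, and 22.3, 24.3 and 22.5 on control arrays. Before scaling, the CS signals lay on both sides of the control range, and PM2.5 1 fell inside it while PM2.5 2 and PM2.5 3 lay above it. All 90 Napepld spots were well above background by the scanner software's test, with a median spot signal 2.85 to 4.33 times the local background. The median signal of the negative control spots was 1.01 to 1.67, far below Napepld. The geometric mean signal of the E1A control spots, which are made for a spike-in transcript and have no rat target, was 26.0 to 43.2. It exceeded the Napepld mean on 8 of 9 arrays, and on PM2.5 3 it was 29.6 with Napepld at 29.9. Whether the spike-in transcript was added to these samples was not established, so the E1A spots may read added RNA or unspecific signal.

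Relative to the 75th percentile, Napepld was higher in both exposed groups. The scaled log2 level was −2.84, −3.54 and −3.15 on CS arrays, −2.74, −2.52 and −3.10 on PM2.5 arrays, and −3.91, −3.80 and −3.86 on control arrays. Every exposed array was above every control array on this scale. The means were −3.18 ± 0.35 in CS lungs, −2.79 ± 0.29 in PM2.5 lungs and −3.85 ± 0.06 in control lungs (SD, n = 3 each). Arrays of the groups did not overlap, with the exposed ones higher, on 56.8% of all probes for CS and 55.8% for PM2.5, so the separation alone is what most probes showed.

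The rise of Napepld in PM2.5 lungs was 1.07 log2 units (SE 0.20, adjusted p = 0.00292 in limma), or 2.09 times the control level (95% confidence interval 1.53 to 2.86), in a comparison where 47.1% of probes passed as higher and the median of all probes was 0.50. It passed in all 9 fits that left out 1 array, at 0.93 to 1.22, and 35.8% to 66.4% of all probes passed in those fits. After quantile scaling it was 0.44 (adjusted p = 0.00578), with levels of 4.90, 4.83 and 4.83 on PM2.5 arrays, against 4.42, 4.47 and 4.35 on control arrays. The authors' deposited log2 values gave 0.45 (adjusted p = 0.00478), and centring on the median gave 0.63 (adjusted p = 0.00605). With slide as a random block it was 1.13 (adjusted p = 0.0285, where 20.7% of all probes passed). With the control arrays merged into a single sample the adjusted p was 0.0988, where 3.89% of all probes passed. Relative to the E1A control spots, a scaling chosen after the data were seen, it was 0.29 (95% confidence interval −0.08 to 0.66, adjusted p = 0.266), and after normexp background correction 0.34 (adjusted p = 0.566). With normexp 8.06% of all probes passed, and the Napepld level was −1.16 on control 1, against −2.31 on control 2 and −2.29 on control 3.

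In CS lungs Napepld rose by 0.68 log2 units in this scaling (SE 0.20, adjusted p = 0.0242 in limma), or 1.60 times the control level (95% confidence interval 1.17 to 2.18), where 39.0% of probes passed as higher, but the value was −0.031 (adjusted p = 0.935) relative to the E1A control spots. After quantile scaling it was 0.13 (adjusted p = 0.334), with levels of 4.60, 4.47 and 4.56 on CS arrays, against 4.42, 4.47 and 4.35 on control arrays. CS 2 then lay between control 1 and control 2, so the groups overlapped. The authors' deposited log2 values gave 0.12 (adjusted p = 0.377) and centring on the median 0.29 (adjusted p = 0.137). With the 75th percentile the call was lost without CS 1 (0.51, adjusted p = 0.0753), CS 3 (adjusted p = 0.0682) or any of the control arrays (adjusted p 0.0620 to 0.0778). The Napepld value in CS lungs therefore has no settled direction.

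Scaled in the same way, the E1A control spots were also higher on exposed than on control arrays. Their level relative to the 75th percentile was −2.62 ± 0.36 on CS arrays, −2.55 ± 0.53 on PM2.5 arrays and −3.33 ± 0.11 on control arrays (SD, n = 3 each), 0.71 higher in CS and 0.78 higher in PM2.5 than in control. The E1A and Napepld levels both have the array's 75th percentile subtracted. Before scaling, the E1A signal overlapped between the groups, at 26.0 to 43.2 on CS, 28.6 to 41.3 on PM2.5 and 30.8 to 34.9 on control arrays. Relative to these spots Napepld was at −0.57, −0.55 and −0.55 on CS arrays, −0.26, −0.46 and 0.02 on PM2.5 arrays, and −0.47, −0.47 and −0.63 on control arrays. All PM2.5 arrays were above the control arrays on this scale too, though PM2.5 2 only just, and the CS arrays lay within the control range. On this scale the Pld1 difference was −1.42 in CS (adjusted p = 0.0364 in limma) and −1.36 in PM2.5 (adjusted p = 0.0334). The medians of all probes were then −0.26 in CS and −0.27 in PM2.5. In CS 13.7% of all probes passed (110 higher, 5063 lower), and in PM2.5 19.5% passed (274 higher, 7057 lower).

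**Figure D2:**
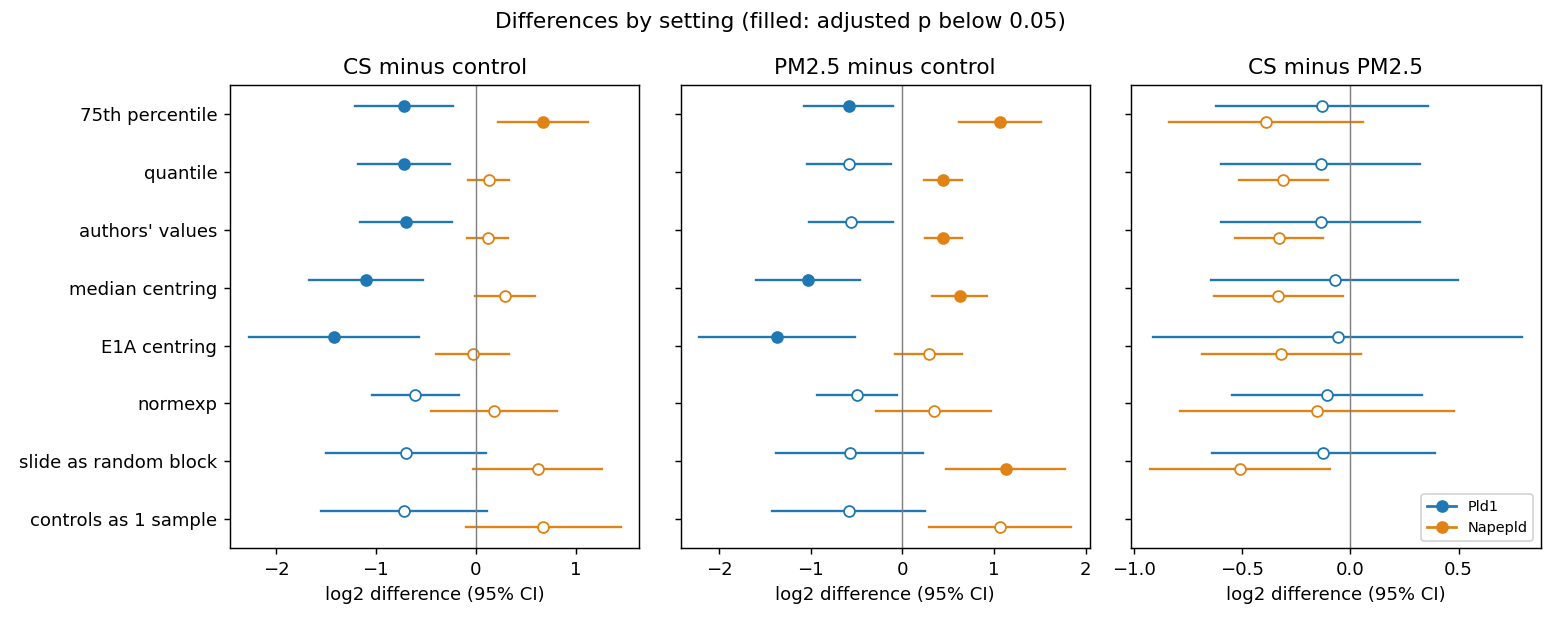
Log2 difference of Pld1 (blue, upper of each pair) and Napepld (orange, lower) for CS minus control, PM2.5 minus control and CS minus PM2.5, with 95% confidence intervals, under 8 settings of the fit. Filled points passed an adjusted p of 0.05. Pld1 lies below 0 in each setting against control, whereas Napepld in CS lungs ranges from 0.68 to −0.031 and so changes sign, and the last setting has no value for CS minus PM2.5.

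Napepld had a lower mean in CS than in PM2.5 lungs, and the difference did not pass. The scaled levels were −3.18 ± 0.35 in CS lungs and −2.79 ± 0.29 in PM2.5 lungs (SD, n = 3 each), and the arrays overlapped, whereas 8.92% of all probes had every CS array above every PM2.5 array and 10.5% had every CS array below. The log2 difference was −0.39 (SE 0.20, 95% confidence interval −0.84 to 0.06, adjusted p = 0.362 in limma). After quantile scaling it was −0.31 with arrays that did not overlap, from 4.47 to 4.60 in CS and from 4.83 to 4.90 in PM2.5 lungs (adjusted p = 0.0720), where 8.74% of all probes passed (5.18% higher and 3.56% lower), and the authors' deposited log2 values gave −0.33 (adjusted p = 0.0526). One slide held CS 2 and CS 3 beside PM2.5 1 and PM2.5 2, and on it the difference was −0.71, with means of −3.34 in CS and −2.63 in PM2.5 lungs. With slide as a fixed block this value passed (adjusted p = 0.0470), in a fit where 5.28% of all probes passed, and it passed in no other setting tried. For Pld1 the difference on the shared slide was −0.12. With the replicate number as a block, which the labels pair with the archiving time in both exposed groups, the adjusted p was 0.478 for Napepld and 0.902 for Pld1, and 3.29% of all probes passed. From low to high, the group means of Napepld ran control, CS and PM2.5, and the moderated F test gave an adjusted p of 0.00668.

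Since a scale factor shared by all probes of an array cancels in a difference of 2 probes, the gap between both genes was also followed, as a value without a test. The scaled level of Napepld minus that of Pld1 was −3.36, −3.92 and −3.69 on CS arrays, −3.80, −2.60 and −3.78 on PM2.5 arrays, and −5.18, −4.98 and −4.98 on control arrays. All exposed arrays had a smaller gap than all control arrays. The gap changed by 1.39 log2 units in CS and by 1.65 in PM2.5 lungs against control, and by 0.85 and 1.02 after quantile scaling, which does not keep such differences. This shows unequal change of the probes and not which of them moved. No share over other pairs of probes was computed. Relative to the E1A control spots, which have no rat target, the Pld1 difference was −1.42 in CS and −1.36 in PM2.5 lungs. The smaller gap to Pld1 is therefore not particular to Napepld.

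**Figure D3:**
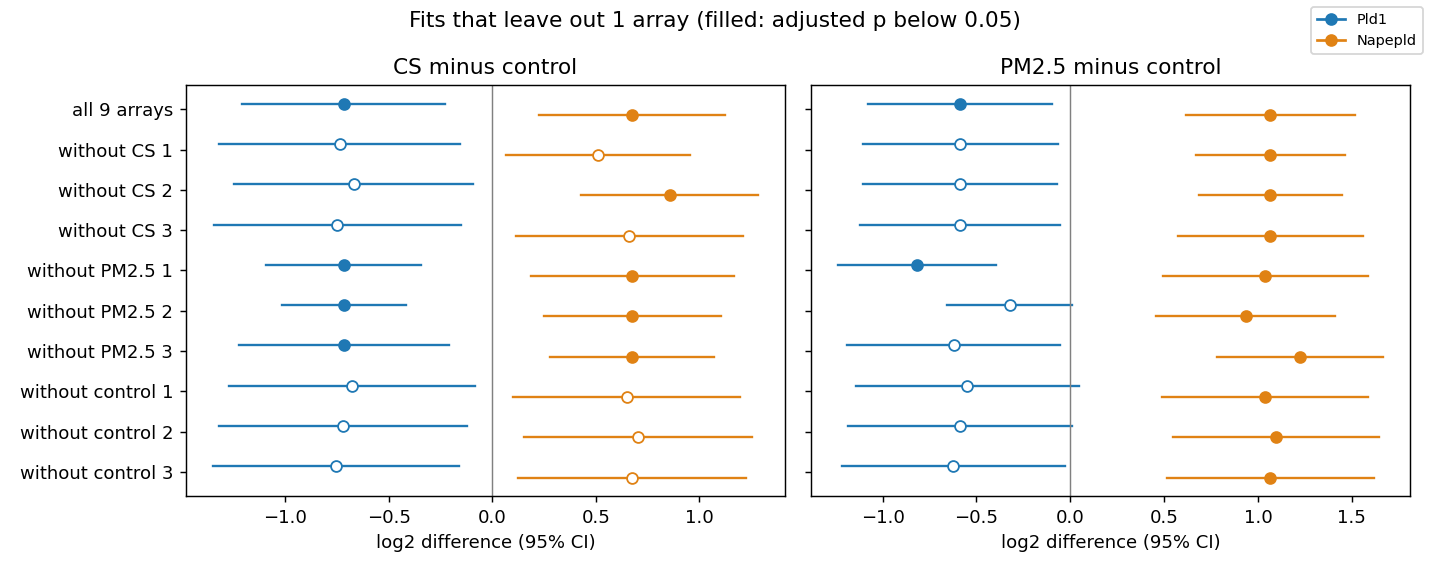
Log2 difference against control of Pld1 (blue) and Napepld (orange) with 95% confidence intervals, for CS (left) and PM2.5 (right), with all 9 arrays and with each array left out in turn, scaled to the 75th percentile. Filled points passed an adjusted p of 0.05. Napepld in PM2.5 lungs passed in each fit, at 0.93 to 1.22 with an array left out, where 35.8% to 66.4% of all probes passed. Pld1 in PM2.5 lungs passed with all arrays and without PM2.5 1.

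No other gene of either pathway could be read. None of 6 further members of the phospholipase D family, of 25 regulators of phospholipase D1 and phosphatidic acid enzymes, or of 28 genes of N-acylethanolamine synthesis, breakdown and reception had a named probe. Among the 28 other named genes, the levels most like Pld1 over the 9 arrays were those of Ndfip2 (r = 0.98) and Ndfip1 (r = 0.96), adaptors of Nedd4-family ubiquitin ligases, and Mex3c (r = 0.93), an RNA-binding ubiquitin ligase. Ndfip2 had levels of 2.54 to 2.68 in CS, 2.32 to 2.92 in PM2.5 and 3.07 to 3.20 in control lungs, and all 3 genes were lowest among PM2.5 arrays on PM2.5 2, as Pld1 was. After quantile scaling these correlations were 0.97, 0.92 and 0.96.

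The levels most like Napepld were those of Enpp1 (r = 0.94), whose enzyme releases pyrophosphate from ATP, Lhcgr (r = 0.92), the luteinizing hormone receptor gene, and Fgf2 (r = 0.91), a fibroblast growth factor gene. After quantile scaling Enpp1 stayed at 0.96, while Lhcgr and Fgf2 had 0.43. Enpp1 had levels of 2.00 to 2.37 in CS, 2.63 to 2.68 in PM2.5 and 1.67 to 1.75 in control lungs, which is the same order of groups as for Napepld. Pld1 and Napepld themselves had r = −0.66. These 9 points share slides, brightness and the split between exposed and control arrays, and the correlations are given as descriptions only.

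**Figure D4:**
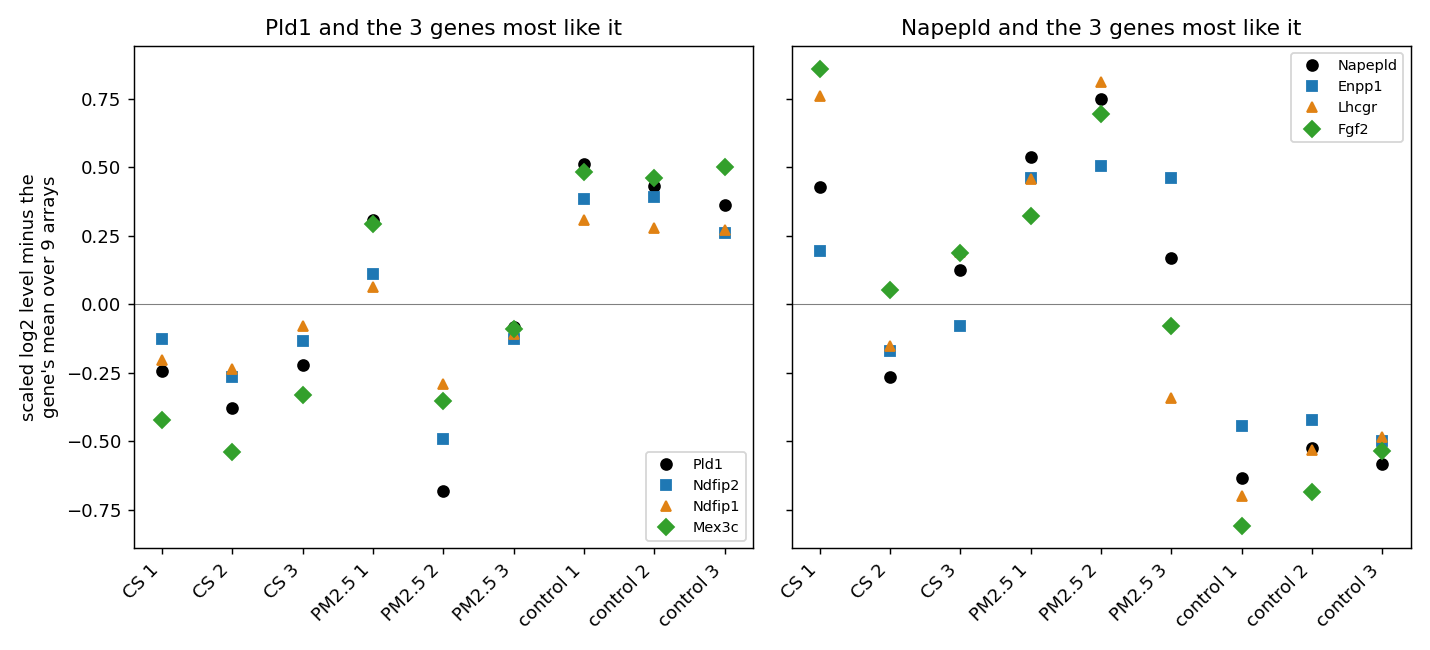
Scaled log2 level of each gene on each array, minus that gene's mean over the 9 arrays, for Pld1 with Ndfip2, Ndfip1 and Mex3c (left) and for Napepld with Enpp1, Lhcgr and Fgf2 (right). Pld1 and the 3 genes beside it are lower on each CS array than on the control arrays, and among the PM2.5 arrays they are lowest on PM2.5 2. Napepld and the 3 genes beside it are higher on each exposed array than on the control arrays in this scaling, which for Napepld in CS does not hold relative to the E1A control spots (−0.031).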

How the data were processed

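RNA of whole lung was labelled with the Agilent Quick Amp kit, per the labels. The deposited scanner files hold linear intensity of a 1-colour scan with Feature Extraction 11.0.1.1, background subtracted within each array, per the file headers. Other deposited values used were flags of 0 or 1. The authors' deposited log2 values, 1 per probe, follow an unstated method. Their columns have nearly equal distributions and follow the log2 scanner intensity with correlations of 0.998 to 0.999.

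Saturated and outlier spots were dropped and the rest averaged per probe on the log2 scale, after which each array's 75th percentile over unflagged non-control spots was subtracted. Probes well above background on all 3 arrays of a group were kept (37861), less 218 with no usable spot (unflagged and above 0) on some array, which left 37643 (97.0%). Limma 3.58.1 in R 4.3.3 (lmFit, eBayes, two-sided) was fitted to the 9 arrays with 1 mean per group, and p-values were adjusted over all probes tested. The fit was tested on simulated data with independent arrays and no slide, scan or brightness effect, so that test cannot speak to such effects. No array reading gives a count, so the number of arrays limits the precision. The labels call the arrays biological replicates.

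Apart from Pld1 and Napepld, the genes named were the 3 with the highest Pearson correlation with each over the 9 arrays, and any member of the pathway lists. Members and lists were chosen with earlier results of these data known. Same-numbered CS and PM2.5 arrays, which the labels give the same archiving time, had deviations that correlated at −0.45 to 0.18 over all probes. Alternatives concerned scaling, background correction with normexp (offset 50, median spot signal because the files used have no mean), the filter, spots, blocks and arrays left out.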

Additional observations from a re-analysis of the deposited data

How the results depend on the processing

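All differences here are log2 values. Pld1 was lower than control in both exposures under each setting tried and Napepld was higher in PM2.5, whereas Napepld in CS reversed to −0.031 relative to the E1A control spots. Calls were lost as follows, and the cause was not tested. Pld1 in CS lost its call with normexp (−0.60), slide as a random block (−0.70) and the control arrays as 1 sample (−0.72). Pld1 in PM2.5 lost it after quantile scaling (−0.58), with the authors' values (−0.56), normexp (−0.50), slide as a random block (−0.57), the control arrays as 1 sample (−0.59) and a fit of only PM2.5 and control (−0.59). Napepld in CS lost it after quantile scaling (0.13), centring on the median (0.29), with the authors' values (0.12), normexp (0.19), slide as a random block (0.62) and the control arrays as 1 sample (0.68). Napepld in PM2.5 lost it with normexp (0.34), relative to the E1A spots (0.29) and with the control arrays as 1 sample (1.07). CS minus PM2.5 passed for Napepld with slide as a fixed block (−0.71) and for neither gene otherwise. With each array left out in turn, Pld1 ranged from −0.75 to −0.67 in CS, from −0.82 to −0.32 in PM2.5 and from −0.40 to 0.10 for CS minus PM2.5, which reversed to 0.10 without PM2.5 1. Napepld ranged from 0.51 to 0.86, from 0.93 to 1.22 and from −0.56 to −0.21. The change of Napepld minus that of Pld1 was 0.85 in CS and 1.02 in PM2.5 after quantile scaling, and 0.81 and 1.01 with the authors' values.

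CS and control differed on 17865 probes (14673 higher, 3192 lower), against 9277 after quantile scaling (4452 higher, 4825 lower), 9094 after centring on the median (2879 higher, 6215 lower), 9326 with the authors' values (4533 higher, 4793 lower), 2387 with normexp (1224 higher, 1163 lower), 5173 relative to the E1A spots (110 higher, 5063 lower), 2299 with slide as a random block, 165 with the control arrays as 1 sample, and 8204 to 22027 with 1 array left out. For PM2.5 the count was 21416 (17712 higher, 3704 lower), and in the same order 11184 (5449 higher, 5735 lower), 12524 (4770 higher, 7754 lower), 11229 (5529 higher, 5700 lower), 3034 (1572 higher, 1462 lower), 7331 (274 higher, 7057 lower), 7777, 1465 and 13467 to 24988. CS minus PM2.5 had 2226 calls, 512 with normexp, 210 relative to the E1A spots, 630 in a fit of only these groups, 1240 with the replicate number as a block and 1347 to 2584 with 1 array left out. The replicate number as a block changed no call of Pld1 or Napepld (Napepld in CS, adjusted p = 0.0486), and 1 of 9 arrays correlated best with an array of its own number. Napepld lies near the brightness of the E1A control spots, and any effect of that on its fold change was not tested.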

Other observations

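Outlier flags of the scanner software fell on 8 of the 90 Napepld spots and 2 of the 90 Pld1 spots. On control 3, 4 of the 10 Napepld spots were flagged, with signals of 19.1 to 32.1, against 21.7 to 23.6 for the 6 spots kept. On PM2.5 2, 2 Napepld spots with signals of 36.1 and 37.3 were flagged, above the 26.6 to 32.9 of the spots kept. The spread of unflagged Napepld spots was largest on PM2.5 3, where they ran from 24.7 to 42.5 (SD 0.25 log2 units). With flagged spots kept, the Napepld differences were 0.67 in CS and 1.08 in PM2.5, and those of Pld1 were −0.69 and −0.57.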
